A study of Mus musculus with 42 samples.

Results

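The genes described here are 48 genes of the cell cycle and of mitosis, of the 20972 genes that could be named on the array. Each was found by its RefSeq accession among the probes of the array and was read from the probe of that gene that was brightest over all 42 arrays. They comprise 9 cyclins, 8 cyclin-dependent kinases (CDKs) with the phosphatases and the kinase that switch them, 6 E2F and pocket proteins, 11 genes of replication licensing and DNA synthesis, 11 genes of mitosis and 3 Myc genes. All 48 had a probe, and 43 were well above background on every array. Ccne2 was well above background on 0 arrays, Aurkb on 7, Rbl2 on 12, Ccna1 on 13 and Cdk6 on 19, so that changes of these 5 genes are close to the floor of the measurement.

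The cells were a mouse embryonic stem cell (mESC) line, B6, that carries GFP knocked in to Gsc, a gene of the primitive streak, and RedStar knocked in to Hhex, a gene of definitive endoderm. All groups derive from this 1 reporter line, and a reporter gate stands for the reporter and not for the gene itself. ESCs were kept with LIF, and differentiation in monolayer towards anterior definitive endoderm (ADE) was sampled unsorted at d2, then as sorted GFP-negative and GFP-positive cells at d3 (d3G-, d3G+) and d4 (d4G-, d4G+), as d5G-, d5Glow and d5Ghigh by GFP level at d5, and as GFP-positive cells without or with RedStar at d6 (d6G+H-, d6G+H+). These 11 groups received no inhibitor or vehicle. In a second set, d6 cultures whose labels name no sort received DMSO before and during differentiation (Control), DMSO before and 2.5 μM EPZ6438 during differentiation (ADE_EPZ), or 2.5 μM EPZ6438 before and DMSO during differentiation (ES_EPZ). EPZ6438 inhibits the methyltransferase EZH2 of the Polycomb repressive complex PRC2. Every one of the 14 groups had 3 arrays from independent experiments.

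The cell cycle is driven by cyclins, which rise and fall and activate CDKs. D-type cyclins with Cdk4 and Cdk6, and E-type cyclins with Cdk2, phosphorylate the pocket proteins Rb1, Rbl1 and Rbl2, which releases E2F factors to transcribe the genes of DNA replication. A-type and B-type cyclins with Cdk1 drive entry into mitosis, and the anaphase-promoting complex ends it. Mouse ESCs are known for a short G1 phase, high activity of cyclin E and low levels of D-type cyclins, and the cycle changes as they leave pluripotency. In bulk RNA of this kind, fewer cycling cells and less RNA of a gene in each cell cannot be told apart.

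Levels below are log2 normalised intensity, and differences are log2 fold changes with their standard error (SE). They set 3 arrays against 3, other than the d5 average of d5Glow and d5Ghigh, which holds more. The SE rests on the spread of a probe within the groups over all 42 arrays, and not on the compared arrays alone. Adjusted p is limma's, adjusted over all 55681 probes of the array. A gene is said to have risen or fallen where the adjusted p was at most 0.05. A stricter reading, an adjusted p of at most 0.01 with a log2 fold change of at least 1.5, is named as such where it is used. Levels of different genes come from different probes and are not compared with each other.

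Promoters of 4 members are shown because many members of 2 roles fell together at d6, and they show the elements that known regulators of those roles read. Sequences are those of RefSeq for build GRCm38.p6, from 250 bases before to 50 bases after the start of the gene, 5′ to 3′ on the strand of the gene. Capitals in Top2a and Fbxo5, 2 genes of mitosis, mark the cell cycle genes homology region (CHR, TTTGAA) and the CCAAT box on either strand, and capitals in Mcm5 and Cdc6, 2 genes of replication licensing, mark E2F motifs, which were searched as TTTCGCG or its variant TTTGGCG or else as the related GCGGGAA, and CCAAT on either strand. The Top2a promoter lies at chr11:99024140-99024439 on the minus strand, that of Fbxo5 at chr10:5805416-5805715 on the minus strand, that of Mcm5 at chr8:75109259-75109558 on the plus strand and that of Cdc6 at chr11:98907901-98908200 on the plus strand.
Top2a: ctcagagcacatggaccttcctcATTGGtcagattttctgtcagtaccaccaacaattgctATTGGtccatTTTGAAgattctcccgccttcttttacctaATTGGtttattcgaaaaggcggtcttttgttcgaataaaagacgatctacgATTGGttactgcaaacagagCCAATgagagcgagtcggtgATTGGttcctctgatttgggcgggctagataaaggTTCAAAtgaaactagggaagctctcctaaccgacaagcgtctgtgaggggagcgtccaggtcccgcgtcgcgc
Fbxo5: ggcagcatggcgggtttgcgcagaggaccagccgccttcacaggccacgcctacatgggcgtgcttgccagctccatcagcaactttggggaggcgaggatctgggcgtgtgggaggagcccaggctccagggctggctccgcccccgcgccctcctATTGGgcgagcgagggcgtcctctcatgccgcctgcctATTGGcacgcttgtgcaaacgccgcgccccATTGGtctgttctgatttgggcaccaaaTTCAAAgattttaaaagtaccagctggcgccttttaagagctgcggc
Mcm5: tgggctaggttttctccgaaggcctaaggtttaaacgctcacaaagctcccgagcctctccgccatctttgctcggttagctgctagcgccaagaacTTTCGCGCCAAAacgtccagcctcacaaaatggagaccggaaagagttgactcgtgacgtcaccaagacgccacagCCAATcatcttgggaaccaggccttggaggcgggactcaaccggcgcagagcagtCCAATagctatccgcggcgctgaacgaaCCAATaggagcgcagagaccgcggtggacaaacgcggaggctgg
Cdc6: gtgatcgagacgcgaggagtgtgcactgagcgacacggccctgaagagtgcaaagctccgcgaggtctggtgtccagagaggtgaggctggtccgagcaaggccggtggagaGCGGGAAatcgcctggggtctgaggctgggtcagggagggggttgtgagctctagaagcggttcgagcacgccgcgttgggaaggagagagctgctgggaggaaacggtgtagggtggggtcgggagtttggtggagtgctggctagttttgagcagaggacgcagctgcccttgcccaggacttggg
The Top2a window held 2 CHR and 6 CCAAT matches, that of Fbxo5 held 1 CHR and 3 CCAAT matches, that of Mcm5 held 2 E2F and 3 CCAAT matches, the E2F matches overlapping each other, and that of Cdc6 held 1 E2F match. RefSeq promoters were at hand for 37 of the 48 members, 4 of them with 2 starts. A CHR was found in 7 of 10 mitosis genes and in 2 of 9 replication genes, against 20.2% of all 27025 genes with a promoter. An E2F motif was found in 6 of 9 replication genes and in 0 of 10 mitosis genes, against 7.64% of all genes. CCAAT was found in 8 of 10 mitosis genes and in 7 of 9 replication genes, against 41.1% of all genes, and the E-box CACGTG, the motif of Myc, was found in 3 of the 37 members, against 8.09% of all genes. These are matches of letters in a window, and binding was not measured by these arrays.

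From ESC to d5 the members kept, as a set, close to their level in ESCs, and at d6 most of them fell. The median log2 fold change of the 48 members against ESC lay between -0.18 and 0.03 in the 8 groups from d2 to d5, and was -0.77 in d6G+H- and -0.91 in d6G+H+. The median of all genes lay between 0.001 and 0.035 in the 10 groups. Quantile normalisation gives all arrays the same distribution of values, so that the median of all genes is held near 0 and is no independent reference. On single arrays, the median of the members relative to the ESC mean ran from -0.33 to 0.12 over d2 to d5 and from -1.01 to -0.58 over the 6 sorted d6 arrays, so that the d6 arrays lay below all earlier ones. All 10 comparisons share the same 3 ESC arrays.

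**Figure D1:**
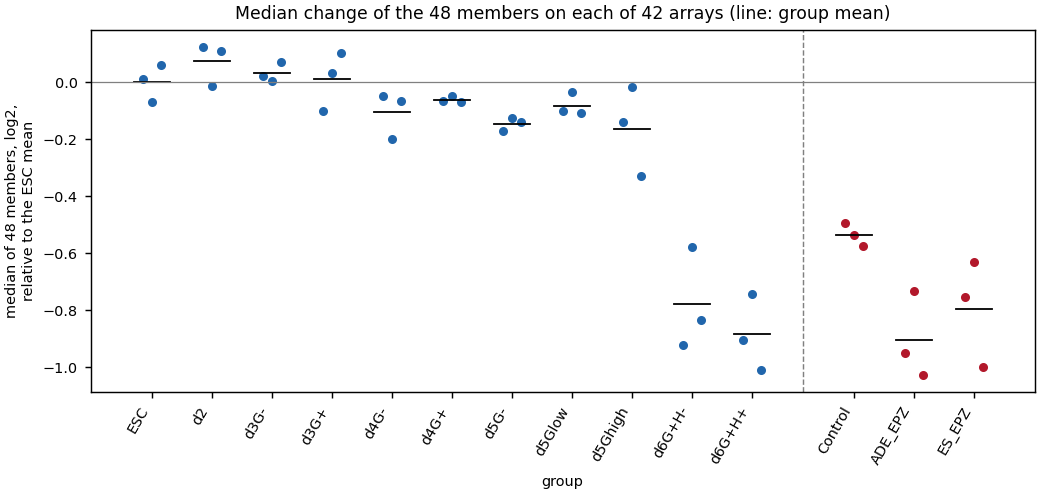
Median, over the 48 members, of the log2 level relative to the ESC mean (y axis) on each of the 42 arrays (points) by group (x axis), with the group mean as a line; blue points are untreated groups and red points, right of the dashed line, the cultures of the EPZ6438 set, which were hybridised on other slides. The 6 arrays of the sorted d6 groups lie between -1.01 and -0.58, below all arrays from ESC to d5.

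At d2, 3 members rose and 3 fell against ESC, where 4.64% of all genes rose and 5.46% fell. At d3, 2 rose and 4 fell in d3G- (7.49% and 6.61% of all genes), and 8 rose and 7 fell in d3G+ (14% and 12.4%). At d4 the counts were 2 and 6 in d4G- (8.23% and 7.89%) and 6 and 9 in d4G+ (14.5% and 13.3%). At d5 they were 2 and 8 in d5G- (10.6% and 8.89%), 5 and 10 in d5Glow (15.4% and 13%) and 3 and 11 in d5Ghigh (15.4% and 14%). Ccnd2 and Mycl were higher and E2f2 and Ccnb2 lower in all 8 groups, and Cdt1 was lower in 7. Without ESC replicate 3 the count that fell was 1 in d3G-, 4 in d3G+, 5 in d4G+, 5 in d5G- and 7 in d5Ghigh, and the count that rose was 1 at d2. The count that fell was 1 at d2 without d2 replicate 2, 2 in d3G- without ESC replicate 1, 4 in d3G+ without d3G+ replicate 2 and 5 in d5G- without d5G- replicate 1, and the count that rose was 1 at d2 without d2 replicate 3, 1 in d4G- without d4G- replicate 2, 1 in d5G- without d5G- replicate 1 and 3 in d5Glow without ESC replicate 1, ESC replicate 2 or d5Glow replicate 2. In d6G+H- 1 member rose and 35 fell, where 17.7% of all genes rose and 17.4% fell, and in d6G+H+ 2 rose and 34 fell, where 18.8% rose and 18.7% fell (1 rose without ESC replicate 1 or d6G+H+ replicate 3). By the stricter reading 1 member rose and 4 fell in d6G+H- (5.12% and 5.07% of all genes) and 1 rose and 6 fell in d6G+H+ (5.82% and 5.3%). Of the 11343 genes well above background on all arrays, 25.7% fell in d6G+H+, and 31 of the 43 members of that kind did.

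**Figure D2:**
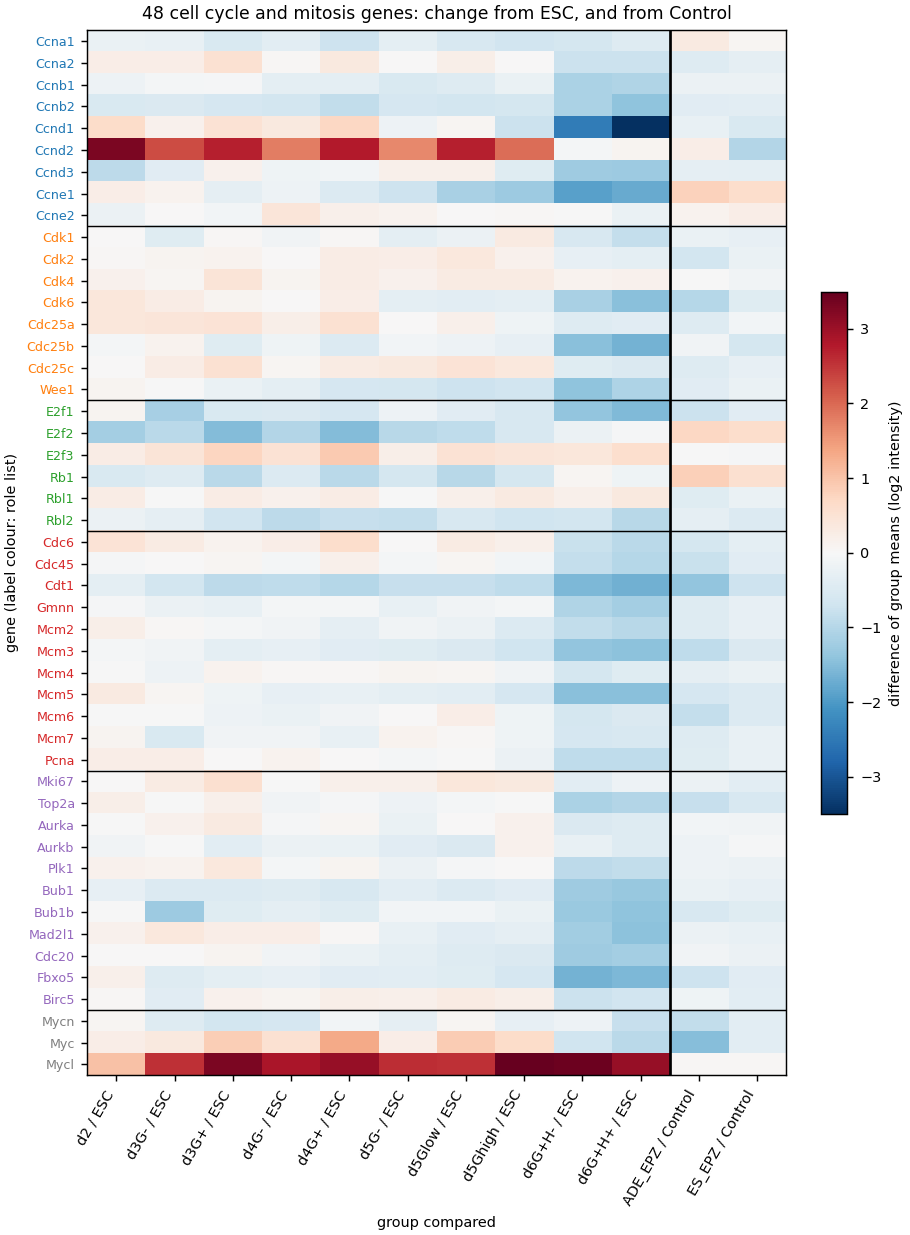
Difference of group means (colour, log2 intensity) for each of the 48 members (rows, grouped by role, one label colour for each role) in the 10 untreated groups against ESC and, right of the line, in ADE_EPZ and ES_EPZ against Control (columns). Blue marks lower and red higher levels; most rows turn blue in the 2 sorted d6 columns, while Ccnd2 and Mycl are red from d2.

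Among the cyclins, the 3 D-type genes followed different courses. Ccnd1, the cyclin D that growth signals induce, measured 11.81, 11.73 and 11.88 on the ESC arrays, 10.94, 11.48 and 10.76 in d5Ghigh, 8.74, 10.04 and 9.34 in d6G+H- and 7.56, 9.25 and 8.01 in d6G+H+. Every sorted d6 array lay below every ESC and d5Ghigh array, and the d6 groups overlapped each other. The fall from ESC was -2.44 ± 0.31, adjusted p = 1.55e-07 in d6G+H- and -3.54 ± 0.31, adjusted p = 5.23e-11 in d6G+H+, the largest fall of any member in either group. In the d6 Control cultures, for which no sort is named, Ccnd1 measured 10.74 ± 0.23 (SD, n = 3). No slide held arrays of both sets, and Control alone of these groups received DMSO, so that slide, sort and DMSO cannot be told apart there.

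Ccnd2, another D-type cyclin, measured 8.02, 7.67 and 7.63 in ESCs and 11.22, 10.27 and 11.68 at d2. The groups did not overlap, and the rise was 3.28 ± 0.46, adjusted p = 9.37e-06. It stayed higher than in ESCs in every group from d3 to d5, with changes from 1.69 in d5G- to 2.78 in d4G+. In sorted d6 cells it measured 7.26, 8.45 and 7.38 in d6G+H- and 7.46, 8.86 and 7.28 in d6G+H+, a range that includes the ESC arrays, with a change from ESC of 0.09 ± 0.46, adjusted p = 0.965 in d6G+H+. The Control cultures, also d6 but with no sort named, measured 10.87, 10.72 and 10.89, above all 6 sorted d6 arrays, again with slide, sort and DMSO not told apart. Ccnd3, the third D-type cyclin, fell at d2 (-0.91 ± 0.26, adjusted p = 0.0245), did not pass in any group from d3 to d5, and was lower again in d6G+H- (-1.24 ± 0.26, adjusted p = 0.000256) and d6G+H+ (-1.28 ± 0.26, adjusted p = 0.00016).

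Ccne1, which with Cdk2 starts S phase, declined in steps. It measured 13.65, 13.66 and 13.72 in ESCs, 13.21, 13.56 and 13.34 in d3G+, 13.03, 13.44 and 13.17 in d4G+, 12.19, 12.68 and 12.32 in d5Ghigh and 11.92, 12.21 and 11.59 in d6G+H+. Against ESC the change passed first at d5, with -0.71 ± 0.20, adjusted p = 0.0117 in d5G-, -1.12 ± 0.20, adjusted p = 4.36e-05 in d5Glow and -1.28 ± 0.20, adjusted p = 5.1e-06 in d5Ghigh, and reached -1.77 ± 0.20, adjusted p = 7.55e-09 in d6G+H+. From d5Ghigh to d6G+H+ the further change was -0.49 ± 0.20, adjusted p = 0.107, which did not pass. The mitotic cyclins Ccnb1 and Ccnb2 differed in timing. Ccnb2 was below ESC in all 10 groups, with changes of -0.51 to -1.42, whereas Ccnb1 passed in d5G- (-0.54 ± 0.18, adjusted p = 0.048) and in both d6 groups, with -1.05 ± 0.18, adjusted p = 2.44e-05 in d6G+H+. Ccna2, the S and G2 phase cyclin, rose in d3G+ (0.53 ± 0.14, adjusted p = 0.00594) and fell in d6G+H+ (-0.76 ± 0.14, adjusted p = 5.99e-05). Ccna1, a cyclin of germ cells, was well above background on 3 of 3 ESC arrays and on 0 of 3 arrays of each d6 group, which gives a level in ESCs at least 1.33-fold that in d6G+H+ and at least 1.43-fold that in d6G+H- (the bound uses the dimmest probes above background on each array, adjusted p = 0.00492 and 0.000132). Ccne2 was not well above background on any array and is given no fold.

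**Figure D3:**
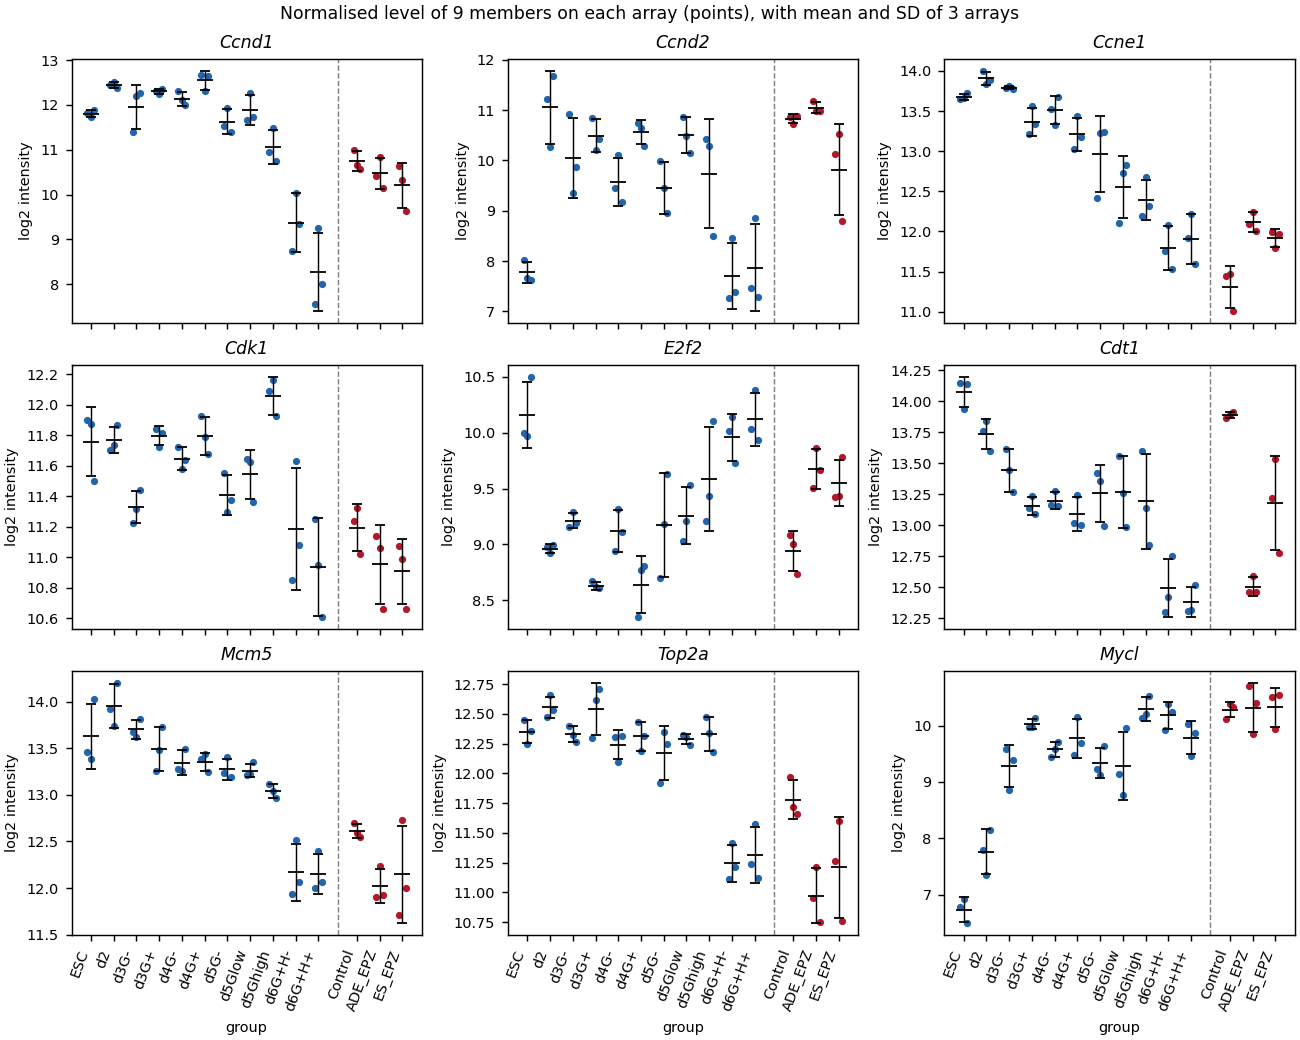
Normalised level (y axis, log2 intensity) of 9 members on each array (points) by group (x axis), with the mean and SD of 3 arrays in black; blue points are untreated groups and red points, right of the dashed line, the EPZ6438 set. Ccnd1 and Top2a are low in sorted d6 cells, Ccnd2 is high from d2 to d5 and at its ESC level in sorted d6 cells, and Mycl rises from d2.

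Of the 8 genes of CDKs and the enzymes that switch them, 6 fell in d6G+H+ and 5 in d6G+H-. Cdk4, the partner of D-type cyclins, did not pass in any of the 10 groups, with changes from 0.08 to 0.44, and Cdk2, the partner of cyclin E, did not pass either, with -0.35 ± 0.17, adjusted p = 0.152 in d6G+H+. Cdk1, the mitotic kinase, measured 11.90, 11.87 and 11.498 in ESCs, 12.09, 12.16 and 11.92 in d5Ghigh and 11.25, 10.95 and 10.61 in d6G+H+. All 3 d6G+H+ arrays lay below all ESC and d5Ghigh arrays, and the change from ESC was -0.82 ± 0.17, adjusted p = 0.000219. Cdk6, the second partner of D-type cyclins, was well above background on 3 of 3 ESC arrays and 0 of 3 arrays of either d6 group, so that its level in ESCs was at least 1.65-fold that in d6G+H+ and at least 1.71-fold that in d6G+H- (adjusted p = 6.39e-05 and 0.00166).

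Of the phosphatases that activate CDKs, Cdc25b fell most. It measured 9.61, 9.64 and 9.75 in ESCs, 9.48, 9.49 and 9.13 in d5Ghigh and 7.97, 8.61 and 7.44 in d6G+H+, without overlap between d6G+H+ and the other 2 groups, a change of -1.66 ± 0.22, adjusted p = 1.81e-07 from ESC. Cdc25a, the phosphatase of the G1 to S step, rose in d3G+ (0.49) and d4G+ (0.54) and was below ESC in d6G+H- (-0.46) and d6G+H+ (-0.38). Cdc25c, which acts on Cdk1 at mitosis, rose in d3G+ (0.54) and d5Glow (0.47) and fell in d6G+H+ (-0.51). Wee1, the kinase that holds Cdk1 inactive, was lower in d4G+ (-0.58), in the 3 d5 groups (-0.73 to -0.62), in d6G+H- (-1.42 ± 0.16, adjusted p = 7.05e-09) and in d6G+H+ (-1.08 ± 0.16, adjusted p = 1.19e-06).

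The E2F and pocket proteins did not move as 1 group. E2f1, an activator of S phase genes, fell in d6G+H- (-1.39 ± 0.40, adjusted p = 0.00815) and in d6G+H+ (-1.56 ± 0.40, adjusted p = 0.00266). One array stood apart for it, replicate 1 of d3G-, with 7.63 against 10.84 and 10.53 on the other arrays of that group, and the SE, which pools the spread of all groups, includes that array. E2f2, an activator of the same class, measured 9.999, 9.97 and 10.498 in ESCs, 8.97, 8.92 and 8.99 at d2, 8.35, 8.77 and 8.80 in d4G+ and 10.04, 10.39 and 9.94 in d6G+H+. It dropped at d2 (-1.19 ± 0.21, adjusted p = 0.000181), was lowest in d3G+ (-1.53) and d4G+ (-1.52), and in d6G+H+ differed from ESC by -0.04 ± 0.21, adjusted p = 0.97. E2f3 rose in d3G+ (0.75), d4G+ (0.92) and d6G+H+ (0.60 ± 0.19, adjusted p = 0.0152). Rb1, the retinoblastoma protein, was lower in d3G+ (-0.93), d4G+ (-0.93) and d5Glow (-0.96) and did not pass at d6, and Rbl1 did not pass in any group, with changes from -0.01 to 0.34. Rbl2 was well above background on 3 of 3 ESC arrays and on 0 of 3 arrays of each d6 group, a level in ESCs at least 1.84-fold that in d6G+H+ and at least 1.56-fold that in d6G+H- (adjusted p = 0.000201 and 0.0127).

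Of the 11 genes of replication licensing and synthesis, 9 fell in d6G+H+ and 10 in d6G+H-, where 18.7% and 17.4% of all genes fell, with a median of -0.97 in d6G+H+. Cdt1, which loads the replicative helicase on origins, measured 14.15, 13.94 and 14.14 in ESCs, 13.14, 13.24 and 13.10 in d3G+, 13.60, 13.14 and 12.85 in d5Ghigh and 12.31, 12.32 and 12.52 in d6G+H+. It fell early, by 0.63 in d3G- and 0.92 in d3G+, held that level to d5, and fell again to -1.69 ± 0.17, adjusted p = 1.11e-09 in d6G+H+. Mcm5, a subunit of the helicase with the promoter shown above, measured 13.46, 13.38 and 14.03 in ESCs, 13.12, 13.04 and 12.96 in d5Ghigh and 12.002, 12.40 and 12.06 in d6G+H+. The d6G+H+ arrays lay below all others named, with -1.47 ± 0.19, adjusted p = 1.41e-07 from ESC. Mcm3 (-1.44 ± 0.13, adjusted p = 4.03e-11) and Mcm2 (-0.97), both helicase subunits, fell as well, and the subunits Mcm4 and Mcm7 did not pass, with -0.43 ± 0.23, adjusted p = 0.195 and -0.57 ± 0.30, adjusted p = 0.197. For both, all d6G+H+ arrays lay below all ESC arrays. Replicate 1 of d3G- stood apart for Mcm4 (13.11 against 14.58 and 14.56) and Mcm7 (12.75 against 14.98 and 14.95). The SE, which pools the spread of all groups, includes that array. Geminin (Gmnn), the inhibitor of Cdt1, fell (-1.18 ± 0.19, adjusted p = 5.11e-06). Cdc45, a part of the active helicase, fell by 1.01, Cdc6, a loader of the helicase whose promoter is shown above, fell by 0.93 after a rise at d2 (0.48) and in d4G+ (0.62), and Pcna, the sliding clamp of the polymerases, fell by 0.88.

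Of the 11 genes of mitosis, 8 fell in d6G+H+ and 10 in d6G+H-, against the same shares of all genes, with a median of -1.04 in d6G+H+. Fbxo5, the inhibitor of the anaphase-promoting complex whose promoter is shown above, measured 13.11, 12.76 and 13.52 in ESCs, 12.60, 12.62 and 12.41 in d5Ghigh and 11.21, 11.51 and 11.93 in d6G+H+. The change in d6G+H+ was -1.58 ± 0.28, adjusted p = 3.48e-05. Top2a, the topoisomerase that untangles chromosomes, measured 12.45, 12.25 and 12.35 in ESCs, 12.47, 12.34 and 12.18 in d5Ghigh and 11.24, 11.58 and 11.12 in d6G+H+, without overlap of d6G+H+ with the other 2, a change of -1.04 ± 0.16, adjusted p = 4.48e-06. The spindle checkpoint genes Mad2l1 (-1.42), Bub1 (-1.33) and Bub1b (-1.40) fell, and Cdc20, the activator of the anaphase-promoting complex that the checkpoint restrains, fell by 1.20. The mitotic kinases Plk1 and Aurka fell by 0.88 and 0.46. Mki67, the proliferation marker Ki-67, measured 12.95, 12.80 and 13.12 in ESCs, 13.36, 13.74 and 13.42 in d3G+, 13.33, 13.38 and 13.21 in d5Ghigh and 12.76, 12.98 and 12.62 in d6G+H+. It rose in d3G+ (0.55 ± 0.13, adjusted p = 0.00183) and did not pass in d6G+H+ (-0.17 ± 0.13, adjusted p = 0.465). Birc5, survivin, did not pass in d6G+H+ either (-0.68 ± 0.28, adjusted p = 0.0732), and Aurkb was near background. All d6G+H+ arrays of Birc5 (13.88, 14.36 and 13.76) lay below its ESC arrays (14.86, 14.74 and 14.45). Its pooled SE includes replicate 1 of d3G-, which stood apart (13.18 against 14.91 and 14.75). In d6G+H- both Mki67 (mean 12.59, against 12.96 in ESCs) and Birc5 (13.92 against 14.68) fell, and of the 11 genes only Aurkb did not pass there.

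The 3 Myc genes, transcription factors that promote growth and proliferation, each had a course of its own. Mycl measured 6.79, 6.92 and 6.495 in ESCs, 7.80, 7.35 and 8.15 at d2, 9.98, 9.98 and 10.13 in d3G+, 10.13, 10.21 and 10.53 in d5Ghigh and 10.03, 9.46 and 9.86 in d6G+H+. Every array after ESC was above the ESC arrays, with a rise of 1.03 ± 0.25, adjusted p = 0.00907 at d2 and 3.05 ± 0.25, adjusted p = 1.2e-11 in d6G+H+, the largest rise of any member at d6. Myc measured 9.92, 10.15 and 10.14 in ESCs, 11.27, 11.35 and 11.60 in d4G+ and 9.16, 9.11 and 9.12 in d6G+H+. It was above ESC in the GFP-positive groups of d3 to d5, most in d4G+ (1.33 ± 0.19, adjusted p = 2.21e-06), and below ESC in d6G+H+ (-0.94 ± 0.19, adjusted p = 0.000245). Mycn passed only in d6G+H+ (-0.80 ± 0.23, adjusted p = 0.00775) and differed by -0.18 ± 0.23, adjusted p = 0.739 in d6G+H-.

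The step from d5Ghigh to d6G+H+ sets cells of the highest Gsc reporter level at d5 against Hhex reporter positive cells of d6. Both the day and the Hhex gate differ in it, and their parts cannot be told apart. In d6G+H- 35 members were lower against ESC, where 17.4% of all genes were. Between d6G+H+ and d6G+H- 0 members differed, where 0.00477% of all genes rose and 0% fell. The groups d6G+H- and d5Ghigh were not tested against each other. From d5Ghigh to d6G+H+ 0 of the 48 members rose and 29 fell, where 10.7% of all genes rose and 10.3% fell, and by the stricter reading 0 rose and 3 fell (2.73% and 1.43% of all genes). The median of the members was -0.76 and that of all genes, which the normalisation holds near 0, was -0.01. Of the genes well above background on all arrays 15.7% fell, and 28 of the 43 members of that kind did. Slide 3, the 1 slide with an array of each group, gave a median of -0.84, with 43 members lower and 5 higher. In a fit to the 6 arrays of these 2 groups alone 19 members fell. With the replicate number as a block, which was taken to pair the arrays here, E2f2 rose (0.54 ± 0.19, adjusted p = 0.0477) and 31 members fell, with Wee1 (-0.40 ± 0.13, adjusted p = 0.0252) and Aurkb (-0.61 ± 0.21, adjusted p = 0.04), which is near background, added. The counts by role given next are those without the block. Without d5Ghigh replicate 3 the count that rose was 2.

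By role, 6 of 9 cyclins, 5 of 8 CDK genes, 8 of 11 replication genes, 9 of 11 mitosis genes, 1 of 3 Myc genes and 0 of 6 E2F and pocket proteins fell at this step. The 10 largest falls among them were those of Ccnd1 (-2.79 ± 0.31, adjusted p = 9.53e-08), Ccnd2 (-1.87 ± 0.46, adjusted p = 0.00475), Myc (-1.57 ± 0.19, adjusted p = 4.73e-07), Cdc25b (-1.36), Cdk1 (-1.12 ± 0.17, adjusted p = 1.05e-05), Gmnn (-1.12), Cdk6, Cdc6 (-1.11), Mad2l1 (-1.10) and Top2a (-1.02 ± 0.16, adjusted p = 2.8e-05). Of Cdk6, 1 of 3 d5Ghigh arrays (4.46, 6.34 and 5.165) and 0 of 3 d6G+H+ arrays (4.35, 4.10 and 4.17) were well above background. It passed (adjusted p = 0.00403) but is given no fold, and its place in this ranking rests on values near background. Ccnb1 (-0.82 ± 0.18, adjusted p = 0.0018), Mki67 (-0.52 ± 0.13, adjusted p = 0.00484) and Ccnd3 (-0.86 ± 0.26, adjusted p = 0.019) fell too, whereas Ccne1, Mycn (-0.52 ± 0.23, adjusted p = 0.149) and Mycl (-0.50 ± 0.25, adjusted p = 0.225) did not pass. E2f1 did not pass (adjusted p = 0.0974). It measured 10.48, 10.39 and 9.94 in d5Ghigh and 9.15, 9.37 and 9.28 in d6G+H+, without overlap. Its SE, pooled over all groups, includes the d3G- array that stood apart. With slide as a fixed block E2f1 (-1.38 ± 0.43, adjusted p = 0.0287), Bub1b (-1.55 ± 0.50, adjusted p = 0.0363) and Wee1 (-0.44 ± 0.15, adjusted p = 0.0428) fell as well.

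**Figure D4:**
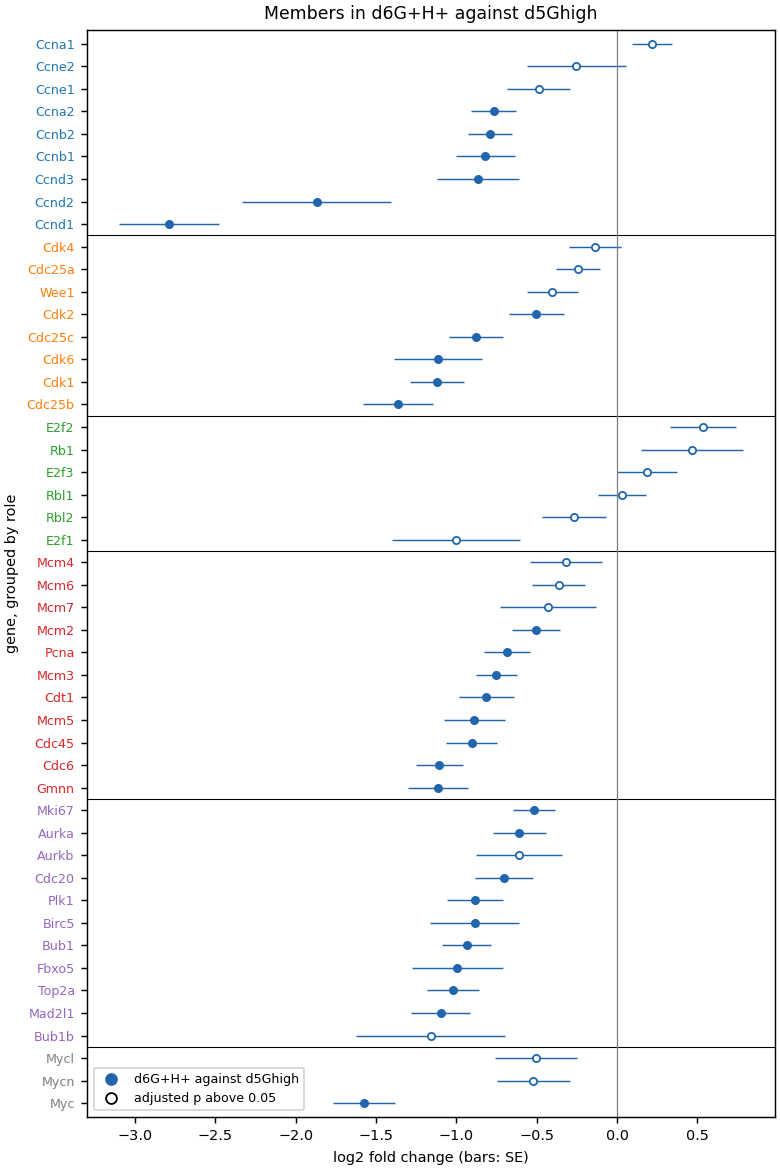
Log2 fold change of d6G+H+ against d5Ghigh (x axis) for each member (y axis, grouped by role), with bars for the SE; filled points have an adjusted p of at most 0.05. Of the points 29 are filled, all left of 0, with Ccnd1 at -2.79, while the 6 E2F and pocket proteins have open points on both sides of 0.

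Other genes of the same pathways changed at this step too, where 10.7% of all genes rose and 10.3% fell. Of 42 other replication genes 0 rose and 22 fell, the most Dut (-1.51 ± 0.20, adjusted p = 1.23e-06), which keeps uracil out of DNA, and Gins1 (-1.39 ± 0.18, adjusted p = 8.58e-07), a part of the helicase. Of 61 other mitotic genes 0 rose and 46 fell, the most Sgo2a (-1.31 ± 0.19, adjusted p = 7.54e-06), a protector of centromere cohesion, and Kif20a (-1.20 ± 0.16, adjusted p = 2.23e-06), a kinesin of cytokinesis. Of 28 other G1 and S regulators 2 rose and 9 fell, with falls of E2f4 (-1.07 ± 0.27, adjusted p = 0.00557) and Tfdp2 (-0.87 ± 0.21, adjusted p = 0.00421) and rises of the Myc antagonists Mxd4 (1.08 ± 0.20, adjusted p = 0.000169) and Mxd1 (0.56 ± 0.18, adjusted p = 0.0276). Of 7 CDK inhibitors 3 rose and 0 fell, namely Cdkn2b (2.69 ± 0.53, adjusted p = 0.000406) and Cdkn2a (2.35 ± 0.53, adjusted p = 0.00174), inhibitors of Cdk4 and Cdk6, and Cdkn1a (0.99 ± 0.34, adjusted p = 0.0442), an inhibitor of Cdk2 and other CDKs. Against ESC, d6G+H+ had 28 of the 42 replication genes and 43 of the 61 mitotic genes lower, with 0 and 3 higher (18.7% of all genes lower and 18.8% higher), and the G1 and S regulator Mybl2, an activator of late cell cycle genes, fell most (-4.07 ± 0.16, adjusted p = 3.06e-19).

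Markers of other cell types moved at the same step. Against ESC, 6 of 7 naive ESC markers were lower and all 6 endoderm markers higher in d6G+H+. The endoderm markers' mean level per array ran from 11.71 to 13.24 in d5Ghigh and from 13.38 to 13.62 in d6G+H+, with 2 of 6 higher in the test. The 6 streak markers ran from 11.23 to 11.71 in d5Ghigh and from 10.30 to 10.66 in d6G+H+, with 3 lower, and the 5 markers of mesoderm and blood vessel ran from 8.38 to 9.27 and from 6.77 to 7.20, with 2 lower and Tal1 not well above background on any d6G+H+ array. Of 4 fibroblast markers 1 was higher and 2 were lower, of 7 naive ESC markers 1 was higher and 2 were lower, of 5 epiblast markers 2 were lower and of 4 neural markers 0 passed. Their part in the changes of the members was not tested.

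Between populations sorted by the reporters on the same day 0 or 1 of the 48 members differed, and small shares of all genes did. With shares this small, such counts do not set the members apart from other genes. Between d3G+ and d3G- 0 of 48 members rose or fell, where 2.95% of all genes rose and 4.23% fell, and the changes ran from -0.58 for E2f2 to 0.85 for Bub1b, whose level on replicate 1 of d3G- stood apart like that of E2f1. Mycl differed by 0.75 ± 0.25, adjusted p = 0.102 and Ccnd2 by 0.45 ± 0.46, adjusted p = 0.906. Without d3G+ replicate 1, 1 member rose. At an unadjusted p under 0.05 11 members differed. All genes were not counted at an unadjusted p, here or in the sorts below, so that such counts cannot be set against the shares given. With the replicate number as a block, which was taken to pair the arrays here, Ccnd3 (0.55 ± 0.15, adjusted p = 0.0189) and Cdk4 (0.36 ± 0.10, adjusted p = 0.0308) were higher in d3G+. Between d4G+ and d4G- 1 member rose and 0 fell, where 3.45% of all genes rose and 5.16% fell. It was Myc, which measured 11.27, 11.35 and 11.60 in d4G+ and 10.59, 10.40 and 10.80 in d4G- without overlap (0.81 ± 0.19, adjusted p = 0.00811). It no longer passed without d4G- replicate 2 or d4G+ replicate 3, which left 0 members. With the block E2f3 (0.42 ± 0.13, adjusted p = 0.0454) rose as well and Ccna1 (-0.35 ± 0.09, adjusted p = 0.0175), which is near background, was lower. Over all 48 members the changes ran from -0.48 for E2f2 to 0.98 for Ccnd2.

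In the d5 sort, 0 of 48 members differed between d5G- and the average of the GFP-positive gates, where 2.99% of all genes rose and 4.84% fell, with 6 members at an unadjusted p under 0.05. The widest changes were Ccnd2 (0.66 ± 0.40, adjusted p = 0.564), Myc (0.54 ± 0.17, adjusted p = 0.063) and Ccne1 (-0.49 ± 0.17, adjusted p = 0.117), and with the replicate block Myc rose (0.54 ± 0.16, adjusted p = 0.0385) and Ccna1 was lower (-0.27 ± 0.08, adjusted p = 0.0368). Without d5G- replicate 1 there were 1 higher and 1 lower member, and without d5Ghigh replicate 3 there was 1 higher. Between d5Ghigh and d5Glow 0 members rose or fell (0.682% and 0.267% of all genes), with 7 at an unadjusted p under 0.05, and with the block Mycl was higher (1.01 ± 0.23, adjusted p = 0.028) and Ccnd3 lower (-0.60 ± 0.15, adjusted p = 0.038) in d5Ghigh. Without d5Glow replicate 3, 1 member was higher. Between d6G+H+ and d6G+H- 0 members rose or fell, as did 0.00477% and 0% of all genes, with 4 at an unadjusted p under 0.05. The widest difference was that of Ccnd1 (-1.10 ± 0.31, adjusted p = 0.495), whose arrays are given above and overlapped between the groups. Within each of the 3 pairs of arrays Ccnd1 was lower in d6G+H+, and it did not pass with the replicate block either. Whether GFP-positive and GFP-negative cells differed to another extent on another day was tested as an interaction. It passed for 0 members from d3 to d4, where 0% of all genes passed in either direction, and for 0 from d3 to d5, where 0.315% passed upwards and 0.334% downwards, with 2 and 3 members at an unadjusted p under 0.05. The counts at an unadjusted p in this paragraph have no share of all genes beside them.

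Cultures given EPZ6438 during differentiation had lower levels of Myc and of genes of replication. In ADE_EPZ against Control 2 members rose and 13 fell, where 9.16% of all genes rose and 8.91% fell, and by the stricter reading 0 rose and 0 fell (1.95% and 0.777% of all genes), with 1 that fell without Control replicate 1, Control replicate 3 or ADE_EPZ replicate 2. The median of the members was -0.36 and that of all genes, which the normalisation holds near 0, was 0.00. Of the genes well above background on all arrays 14.3% fell, and 12 of the 43 members of that kind did. Each of the 3 slides of this set held 1 array of every group, and with slide as a block 3 members rose and 21 fell. The block added Ccna1, which is near background, to those that rose. To those that fell it added Ccnb2, Cdc25c, Wee1, Rbl1, Gmnn, Mcm2, Pcna and Fbxo5. The other counts, and the genes and counts by role given next, are those without the block. Without Control replicate 3, 0 members rose, and without ADE_EPZ replicate 2, 1 did. Within the 3 slides the median of the members was -0.52, -0.25 and -0.33, with 40, 34 and 40 of 48 members lower.

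Myc measured 9.84, 9.96 and 9.75 in Control and 8.04, 8.93 and 8.08 in ADE_EPZ, without overlap, and was lower (-1.50 ± 0.19, adjusted p = 3.77e-06). Its relative Mycn measured 13.48, 13.42 and 13.45 in Control and 12.47, 12.69 and 12.56 in ADE_EPZ and was lower (-0.87 ± 0.23, adjusted p = 0.00988), while Mycl differed by 0.04 ± 0.25, adjusted p = 0.976. Cdt1 measured 13.86, 13.89 and 13.91 in Control and 12.46, 12.60 and 12.46 in ADE_EPZ, again without overlap, and was lower (-1.38 ± 0.17, adjusted p = 2.27e-06). Of the replication genes 6 of 11 fell, namely Cdt1, Mcm3 (-0.89 ± 0.13, adjusted p = 1.2e-05), Mcm6 (-0.82), Cdc45 (-0.79), Cdc6 (-0.61) and Mcm5 (-0.59). Of the mitosis genes 1 of 11 fell, Top2a (-0.81 ± 0.16, adjusted p = 0.00087), and the mitotic members Ccnb1 (-0.20 ± 0.18, adjusted p = 0.67), Cdk1 (-0.24 ± 0.17, adjusted p = 0.497) and Mki67 (-0.22 ± 0.13, adjusted p = 0.386) did not pass. Cdk2 (-0.63), Cdc25a (-0.45) and Ccna2 (-0.44) fell as well. Cdk6 also passed, but was not well above background on any array of either group and is given no fold.

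Both members that rose in ADE_EPZ belong to the G1 to S step. Ccne1 measured 11.44, 11.46 and 11.01 in Control and 12.09, 12.25 and 12.01 in ADE_EPZ (0.81 ± 0.20, adjusted p = 0.00514), and E2f2 measured 9.09, 8.999 and 8.74 and 9.51, 9.86 and 9.66 (0.74 ± 0.21, adjusted p = 0.0157). The groups did not overlap for either gene. E2f1, of the same class as E2f2, went the other way but did not pass. It measured 10.32, 10.02 and 10.16 in Control and 9.39, 9.51 and 9.335 in ADE_EPZ, without overlap. Its pooled SE includes the d3G- array that stood apart. The D-type cyclins Ccnd1 (-0.27 ± 0.31, adjusted p = 0.761), Ccnd2 (0.22 ± 0.46, adjusted p = 0.902) and Ccnd3 (-0.33 ± 0.26, adjusted p = 0.575) did not pass.

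**Figure D5:**
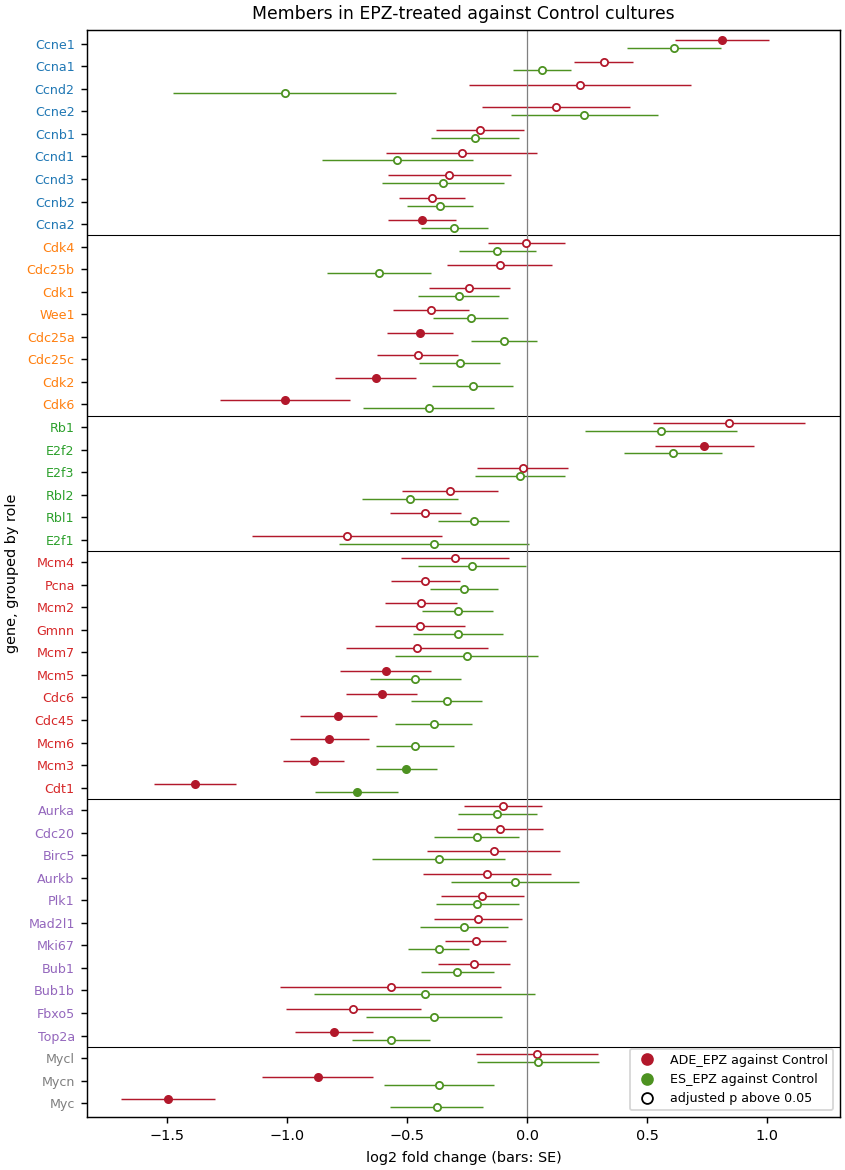
Log2 fold change against Control (x axis) of each member (y axis, grouped by role) in ADE_EPZ (red) and ES_EPZ (green), with bars for the SE; filled points have an adjusted p of at most 0.05. The red points of Myc and Cdt1 lie furthest left, at -1.50 and -1.38, and Ccne1 and E2f2 are the filled points right of 0.

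Other pathway genes changed in the same comparison, where 9.16% of all genes rose and 8.91% fell. In ADE_EPZ 0 of 42 other replication genes rose and 15 fell, most Pold1 (-1.47 ± 0.19, adjusted p = 4.71e-06), the catalytic subunit of DNA polymerase delta. Of 61 other mitotic genes 0 rose and 14 fell, most the condensin subunit Ncapd2 (-1.08 ± 0.15, adjusted p = 8.95e-06) and the separase Espl1 (-0.91 ± 0.16, adjusted p = 0.000191). Of 28 other G1 and S regulators 3 rose, most Mxd4 (1.37 ± 0.20, adjusted p = 1.38e-05) and E2f8 (0.80 ± 0.18, adjusted p = 0.0026), and 1 fell, Lin9 (-0.42 ± 0.13, adjusted p = 0.0284). Of 7 CDK inhibitors 4 rose and 0 fell, with Cdkn2a (4.15 ± 0.53, adjusted p = 2.97e-06) and Cdkn2b (3.88 ± 0.53, adjusted p = 7.01e-06) first and Cdkn1a (1.94) and Cdkn2c (0.84) after them. The mean level of the 6 endoderm markers ran from 11.75 to 12.09 over the Control arrays and from 13.01 to 13.26 over the ADE_EPZ arrays, with 1 higher in the test. Of 6 streak markers 2 were lower, of 7 naive ESC markers 2 were higher and 1 was lower, of 4 fibroblast markers 1 was higher, and 0 of 5 mesoderm, 5 epiblast and 4 neural markers passed. Their part in the changes of the members was not tested.

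Cultures given EPZ6438 before differentiation differed from Control in fewer members. In ES_EPZ against Control 0 rose and 2 fell, where 2.08% of all genes rose and 1.14% fell, and the median of the members was -0.29. Those 2 were Cdt1, which measured 13.22, 13.53 and 12.78 (-0.71 ± 0.17, adjusted p = 0.024), and Mcm3 (-0.50 ± 0.13, adjusted p = 0.0293), and all 3 ES_EPZ arrays lay below the Control arrays for both. The count was 4 without ES_EPZ replicate 2 and 0 without any other single array of the 2 groups. Top2a (-0.57 ± 0.16, adjusted p = 0.0639), Myc (-0.38 ± 0.19, adjusted p = 0.435), Mycn (-0.37 ± 0.23, adjusted p = 0.576), Ccne1 (0.61 ± 0.20, adjusted p = 0.112) and Mycl (0.04 ± 0.25, adjusted p = 0.982) did not pass. Ccnd2 measured 10.12, 10.53 and 8.80, all below the Control arrays but far apart (-1.01 ± 0.46, adjusted p = 0.347), and Ccnd1 (-0.54 ± 0.31, adjusted p = 0.523), Ccnd3 (-0.35 ± 0.26, adjusted p = 0.668), Ccnb1 (-0.22 ± 0.18, adjusted p = 0.742), Cdk1 (-0.29 ± 0.17, adjusted p = 0.534) and Mki67 (-0.37 ± 0.13, adjusted p = 0.15) did not pass either. With slide as a fixed block Top2a was lower in ES_EPZ (-0.57 ± 0.14, adjusted p = 0.0203), as were Cdt1 and Mcm3. Compared directly, ADE_EPZ and ES_EPZ differed in 1 member, with 0 higher and 1 lower (0.801% and 0.319% of all genes). It was Myc, which measured 8.04, 8.93 and 8.08 in ADE_EPZ and 9.49, 9.53 and 9.40 in ES_EPZ (-1.12 ± 0.19, adjusted p = 0.00188). With the replicate block, which was taken to pair the arrays of these 2 groups and coincides with their slides, Cdt1 was also lower in ADE_EPZ (-0.67 ± 0.16, adjusted p = 0.028), and without ES_EPZ replicate 3 the count was 2.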

How the data were processed

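Total RNA of 42 cultures or sorted populations was hybridised to 1-colour Agilent mouse expression arrays, 14 groups of 3. Per the labels the deposited scanner files hold spot intensity, and the authors' table holds log2 values made with limma, which served as an alternative here. From the deposited intensity, spots of a probe were averaged without outlier spots (146 values left out, 0 saturated), background was corrected with normexp (offset 10), then log2 was taken and quantile normalisation made the arrays comparable, giving 55681 probes. On each array between 24459 and 40415 probes were well above background. The result correlated with the authors' log2 table at 0.999893 or more on every array.

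Probes were named through RefSeq accessions (21865 of 23171 accessions matched a symbol, 20972 genes), and the brightest probe stood for a gene. limma 3.58.1 in R 4.3.3 (with statmod 1.5.0, and data.table, version 1.17.8) fitted 1 mean per group over all arrays with empirical Bayes, and p-values were adjusted by Benjamini-Hochberg over all probes. Genes with an adjusted p up to 0.05 passed, and the stricter reading, that of the study's methods, used 0.01 with a log2 fold change of 1.5. The test was checked on simulated data. Named with values in a comparison were the passing members, up to 10 in each direction by size, and 12 members followed in the main comparisons (Ccnd1, Ccnd2, Ccnd3, Ccne1, Ccnb1, Cdk1, Cdk6, Mki67, Top2a, Myc, Mycn and Mycl), with the 2 largest changes each way of the other pathway genes. One gene this rule would name is not reported here. Further genes named, and each gene at the end of a range, were chosen after their values were seen. The members and lists were chosen with earlier results of these data known.

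Groups followed the labels. Same-numbered arrays deviated together (every correlation of their deviations over 0.1) within the sorts of d3, d4, d5 and d6, between d6G+H+ and d5Ghigh, between both d4 groups and ESC, and between ADE_EPZ and ES_EPZ, so that the replicate number was taken to pair them. The correlations were 0.102, 0.181 and 0.275 between d6G+H+ and d5Ghigh. For the d5 average d5Glow alone was correlated with d5G-. Some same-numbered arrays also shared a slide, so that slide and experiment cannot be told apart there. The untreated arrays lay on 5 slides and the EPZ6438 set on 3 others, so that set and slide cannot be told apart. Alternatives were other background corrections, scalings and probe choices, the authors' table, slide or replicate as a block, fits to the compared arrays alone, other thresholds and leaving out each array of the compared groups. Arrays of other groups, such as replicate 1 of d3G-, also enter the SE but were not left out singly. The number of arrays limits the precision.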

Additional observations from a re-analysis of the deposited data

Results flagged for a closer look

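Myc differed between the 2 schedules of EPZ6438, both set against the same Control arrays. The direct test of ADE_EPZ against ES_EPZ gave a log2 fold change of -1.12, with all 3 ADE_EPZ arrays below all 3 ES_EPZ arrays. The cause was not tested.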

How the results depend on the processing

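At an adjusted p of 0.05, the counts of members lower in both sorted d6 groups against ESC stayed within 1.5 times under every alternative run, and that from d5Ghigh to d6G+H+ under every one but the fit to the compared arrays alone. Counts of passing members and medians that moved, and changes of sign, are given by setting; comparisons without a stated reference are against ESC. No gene that passed changed sign. For members followed in each comparison, 3410 of 3725 values kept their call, 238 no longer passed, 31 newly passed and 46 changed sign. The cause was not tested.

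With the array's 75th percentile as scale, the median was 0.114 at d2, 0.052 in d4G+, -0.246 in d5G- and 0.145 in d4G+ against d4G-. Members lower were 3 in d3G+, 4 in d4G+, 5 in d5Ghigh and 1 in ES_EPZ against Control (1 called in ADE_EPZ), members higher 3 in d5Glow, 1 in d6G+H+ and 2 in d5 GFP-positive against d5G-. Ccnb1 turned to 0.142 in d4G+ against d4G-, and Mycl to -0.019 in ADE_EPZ and -0.012 in ES_EPZ. With the authors' log2 table the d4G+ to d4G- median was 0.048, Ccnb1 there 0.008, Cdk6 at d5 0.005, and 1 member was called lower in ADE_EPZ. Without background correction those values were 0.062 for the median and 0.062 for Cdk6, and with an offset of 50 Cdk6 was 0.014, each with 1 member higher in d5 GFP-positive cells and 2 lower in ADE_EPZ against ES_EPZ. With probes above background alone the d4 median was 0.068, with 1 higher at d5 in both comparisons and 2 lower in ADE_EPZ against ES_EPZ.

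With the mean of all probes of a gene, members higher were 5 at d2, 5 in d3G-, 8 in d5Glow, 6 in d5Ghigh, 2 in d6G+H-, 1, 3, 3 and 1 in the d3, d4, d5 and d5Ghigh to d5Glow sorts, and members lower 1 in the d4 and d5 sorts and 2 in ADE_EPZ against ES_EPZ. Ccnb1 turned to -0.12, -0.057 and -0.043 in the d3, d5 and d6 sorts and Ccnd3 to 0.018 at d6. In fits to the compared arrays alone, which hold fewer samples, members lower were 1 in d3G-, 4 in d3G+, 3 in d4G-, 1 in d5G-, 5 in d5Glow, 5 in d5Ghigh, 19 in d6G+H+ against d5Ghigh and 0 in ES_EPZ against Control and against ADE_EPZ, and members higher 3 in d3G+ and 3 in d5Glow. With a log2 fold of 1 in the stricter reading, 18, 19, 10 and 2 members were called lower in d6G+H-, d6G+H+, d6G+H+ against d5Ghigh and ADE_EPZ.

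With the replicate block, members higher were 4 in d3G-, 7 in d5Ghigh, 2 in d6G+H-, 2, 2, 1 and 1 in the d3, d4, d5 and d5Ghigh to d5Glow sorts, 1 in d6G+H+ against d5Ghigh and 1 in ES_EPZ, and members lower 1 in the d4, d5 and d5Ghigh to d5Glow sorts, 21 in ADE_EPZ and 2 in ADE_EPZ against ES_EPZ. The numbers were not taken to pair the arrays against ESC other than at d4, nor those against Control. With slide as a fixed block, medians were -0.04 in d4G+, -0.231 in d5G-, -0.128 in d5Glow and 0.052 in the d4 sort, members higher 6 in d5Ghigh, 2 in d6G+H-, 3, 2 and 1 in the d3, d4 and d5 sorts, members lower 1 in the d4 and d5 sorts, 21 in ADE_EPZ and 2 against ES_EPZ, Cdk6 at d5 0.072 and Ccnd3 at d6 0.031. With slide as a random block the values were -0.249 in d5G-, -0.101 in d5Glow, 5 higher in d5Ghigh, 1, 2 and 1 higher in the d3, d4 and d5 sorts, 1 lower at d4, 20 lower in ADE_EPZ, 2 against ES_EPZ, Cdk6 0.044 and Ccnd3 0.006.

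Leaving out 1 array at a time, members higher ran from 1 to 3 in d2, 1 to 2 in d4G-, 1 to 2 in d5G-, 3 to 5 in d5Glow, 1 to 3 in d6G+H+, 0 to 1 in d3G+ against d3G-, 0 to 1 in d4G+ against d4G-, 0 to 1 in the d5 GFP-positive mean against d5G-, 0 to 1 in d5Ghigh against d5Glow, 0 to 2 in d6G+H+ against d5Ghigh and 0 to 2 in ADE_EPZ against Control. Members lower ran from 1 to 3 in d2, 1 to 5 in d3G-, 4 to 7 in d3G+, 5 to 8 in d4G+, 5 to 8 in d5G-, 7 to 11 in d5Ghigh, 0 to 1 in the d5 GFP-positive mean against d5G-, 0 to 4 in ES_EPZ against Control and 1 to 2 in ADE_EPZ against ES_EPZ, and members called lower from 0 to 1 in ADE_EPZ against Control. Medians ran from -0.04 to 0.047 in d3G-, -0.075 to 0.004 in d4G+, -0.215 to -0.086 in d5G-, -0.11 to -0.04 in d5Glow, -0.065 to 0.105 in d3G+ against d3G- and 0.008 to 0.047 in d4G+ against d4G-. Single members whose sign turned ran from -0.402 to 0.387 for Ccnd2 in d6G+H+, -0.056 to 0.094 for Ccnb1 in d3G+ against d3G-, -0.255 to 0.011 for Cdk6 in d3G+ against d3G-, -0.061 to 0.214 for Ccnd3 in d4G+ against d4G-, -0.086 to 0.05 for Ccnb1 in d4G+ against d4G-, -0.265 to 0.006 for Ccnd1 in the d5 GFP-positive mean against d5G-, -0.255 to 0.243 for Cdk6 in the d5 GFP-positive mean against d5G-, -0.045 to 0.458 for Mycn in the d5 GFP-positive mean against d5G-, -0.329 to 0.541 for Ccnd2 in d6G+H+ against d6G+H-, -0.24 to 0.201 for Ccnd3 in d6G+H+ against d6G+H-, -0.035 to 0.275 for Ccne1 in d6G+H+ against d6G+H-, -0.115 to 0.224 for Ccnb1 in d6G+H+ against d6G+H-, -0.065 to 0.165 for Top2a in d6G+H+ against d6G+H-, -0.153 to 0.276 for Mycl in ADE_EPZ against Control and -0.063 to 0.239 for Mycl in ES_EPZ against Control. Signal over background limits the 5 members named above as near background.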
